A study of Mus musculus with 2 samples.

Results

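Ins1 and Ins2, the 2 mouse insulin genes, and Iapp, which encodes the co-secreted peptide amylin, were described across the cells of mouse pancreatic islets. The 3 genes were taken by symbol from the 28692 genes counted. They were read in raw counts of unique molecular identifiers (UMIs, each standing for 1 captured RNA molecule) from 2 droplet libraries. One library was labelled BcBKO; per the series text its mice had an ablation meant for beta cells, using Pdx1-cre, in which the promoter of Pdx1 drives the recombinase. Pdx1 is active in pancreas progenitors of the embryo and later mainly in beta cells. The other came from flox/flox mice. The series title names BAF60C, the chromatin-remodelling subunit encoded by Smarcd3, and the ablated gene is read from it; which exons are flanked by lox sites is not given in the sources used here. Strain, age and sex are not given either, and the mice carried no stated treatment. Islets of 3 or more mice were pooled for each library, which was made with a 3′ tag kit, so each group was 1 sample. No test between the groups was possible, the 95% intervals given cover counting error alone, and differences between mice cannot be told apart from differences between groups.

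The insulin genes encode preproinsulin, which is directed into the endoplasmic reticulum, folded there, and cut by prohormone convertases inside secretory granules. Most mammals have a single insulin gene. In mice and rats a retroposed copy, Ins1, lacks one of the introns of Ins2, the gene that corresponds to insulin of other mammals. Amylin is cut from its own precursor by the same convertases, is amidated at its C terminus and is stored in the same granules; it is also known from delta cells of rodents. Because beta cells hold so much of these transcripts, dispersing islets releases them into the fluid that fills every droplet, so that cells of other types carry some of them as free RNA.

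Separate chromosomes hold the members (GRCm38, GENCODE M21 annotation). Ins1 lies on the plus strand at chr19:52264297-52265476, Ins2 on the minus strand at chr7:142678656-142743381, and Iapp on the plus strand at chr6:142298423-142303961, where the gene Slco1a5 overlaps it on the opposite strand. The 2 insulin transcripts resemble each other closely, so the part of the coding sequence nearest to the counted 3′ end is shown, with the differing bases in capitals. The last 90 coding bases of each transcript, stop codon included, differed at 4 bases (95.6% identity):
Ins1: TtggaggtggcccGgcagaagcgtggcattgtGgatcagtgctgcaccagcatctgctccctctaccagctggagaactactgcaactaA
Ins2: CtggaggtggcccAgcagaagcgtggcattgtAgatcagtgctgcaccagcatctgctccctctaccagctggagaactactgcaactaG
The longest run shared by the whole transcripts was 56 bases, and that shared by their 3′ untranslated regions was 22 bases. Of the 50-base windows of the Ins1 transcript, 7 of 1013 were present in Ins2, and of those of the Ins2 transcript, 7 of 429 were present in Ins1. The 3′ untranslated regions, of 526 bases in Ins1 and 54 in Ins2, shared no such window. A read that lies within a shared window does not tell the genes apart, and the Ins1 to Ins2 ratio is subject to that limit.

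The promoters of Ins1 and Iapp are shown because the members were the most abundant transcripts of the same cells. They cover 250 bases up to the annotated start of each gene, from RefSeq on GRCm38.p6, at chr19:52264047-52264296 for Ins1 and chr6:142298175-142298424 for Iapp, both on the plus strand. Capitals mark CATCTG, the E box read by NEUROD1 and its partners, and TAAT, the core read by homeodomain factors such as PDX1, on either strand.
Ins1: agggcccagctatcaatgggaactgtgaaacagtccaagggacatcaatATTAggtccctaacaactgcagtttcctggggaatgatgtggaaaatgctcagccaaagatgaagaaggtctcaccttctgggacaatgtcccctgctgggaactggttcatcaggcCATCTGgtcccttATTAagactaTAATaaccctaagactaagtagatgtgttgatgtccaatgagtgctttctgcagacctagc
Iapp: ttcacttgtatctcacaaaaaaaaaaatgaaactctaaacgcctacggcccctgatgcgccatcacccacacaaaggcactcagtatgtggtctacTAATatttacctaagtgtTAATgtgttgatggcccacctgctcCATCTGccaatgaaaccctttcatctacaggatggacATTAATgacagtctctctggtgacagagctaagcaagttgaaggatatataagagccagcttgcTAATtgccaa
Each 250-base window held 1 CATCTG match, a motif present in 14.4% of 32851 promoter windows of the same length. Sequence past the annotated start was not searched, and the annotated 5′ untranslated region was 209 bases in Ins1 and 100 in Iapp. The matches are therefore not a full count of such sites at either gene. TAAT matched 3 times in Ins1 and 5 times in Iapp, where 2 of the matches overlapped, and 54.9% of windows held it at least once. These matches describe the sequence and say nothing of binding.

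Of 10775 barcodes (178647270 UMIs) in the library labelled BcBKO, 8504 had at least 500 genes, at least 1000 UMIs and at most 20% of mitochondrial UMIs. Of 9438 barcodes (167670996 UMIs) in the flox/flox library, 7568 were kept. The libraries shared 14 of their kept barcode sequences, 2 of them in beta cells. Beta cells were the kept barcodes with at least 25% of their UMIs from Ins1 and Ins2, at least 10000 UMIs and under 1% each of glucagon, somatostatin and pancreatic polypeptide transcripts; they numbered 3058 in the library labelled BcBKO and 2750 in the flox/flox library. Few barcodes lay near the insulin limit, with 9 and 8 beta cells at 25 to 30% and 6 and 4 otherwise eligible barcodes at 20 to 25%. The limit on other hormones removed more, and unequally: 543 otherwise eligible barcodes in the library labelled BcBKO and 202 in the flox/flox library. Smarcd3 was not lower in the library labelled BcBKO, at 71 UMIs (0.610 CPM, UMIs per 1000000 of the population's UMIs) in its beta cells and 45 UMIs (0.374 CPM) in flox/flox beta cells. With so few UMIs, and with the deleted exons not given, these counts cannot show whether the gene was ablated, and the library is called by its label. All 7 further beta-cell markers listed were detected in beta cells, with summed levels of 1471 CPM in the library labelled BcBKO and 1681 CPM in the flox/flox library. Macrophage markers summed to 11.6 and 8.48 CPM there.

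In beta cells the members were the 3 most abundant transcripts in both libraries, in the same order. Ins2 was first, at 43.1% of all UMIs of beta cells labelled BcBKO and 44.5% of those of flox/flox beta cells. Ins1 was second, at 18.98% in the library labelled BcBKO and 19.82% in the flox/flox library. Iapp came after them, at 6.01% in the library labelled BcBKO and 5.60% in the flox/flox library. No beta cell of either library lacked a UMI of any member. A beta cell labelled BcBKO held a median of 14456 Ins2 UMIs (10th to 90th percentile 8561 to 27710), and a flox/flox beta cell 17289 (11500 to 30764). The medians for Ins1 were 6401 (3002 to 12825) in the library labelled BcBKO and 7681 (4313 to 14666) in the flox/flox library, and those for Iapp were 1852 (953 to 4217) and 2112 (1233 to 4177). Cells of the library labelled BcBKO were also shallower, with a median of 33172 UMIs in beta cells against 38462 in flox/flox beta cells, and fewer counted molecules and less RNA per cell cannot be told apart.

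**Figure D1:**
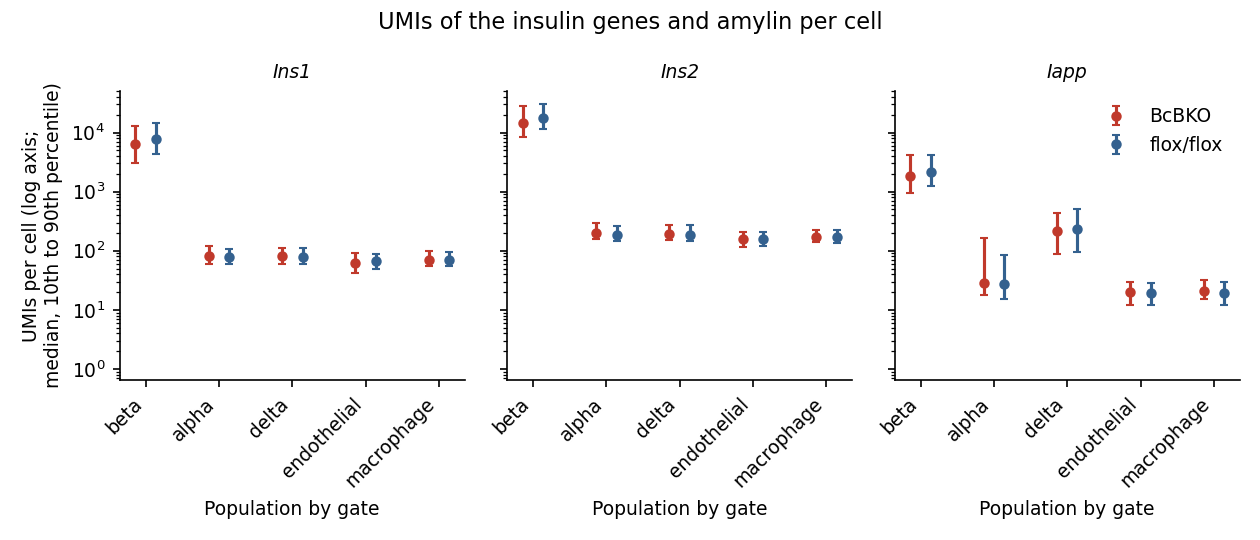
UMIs per cell (log axis) of Ins1, Ins2 and Iapp in the 5 gated populations; points are medians over cells and bars run from the 10th to the 90th percentile, with BcBKO on the left of each pair and flox/flox on the right. The insulin genes stand far above the other populations in beta cells, a separation fixed by the gates, which used the insulin share. In beta cells the medians for Ins2 were 14456 and 17289 UMIs. Iapp, which no gate used, has a second, lower level in delta cells, with medians of 213 and 231 UMIs.

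Between the libraries the members differed little relative to all UMIs. The log2 ratio of BcBKO over flox/flox, on CPM plus a pseudocount of 1, was −0.062 for Ins1 (189787 against 198157 CPM), −0.046 for Ins2 (430688 against 444611 CPM) and 0.10 for Iapp (60070 against 55972 CPM). None of the 3 was 0.25 apart, a distance that 7.62% of 2938 genes at 20 CPM or more reached, 5.82% of them being higher in the library labelled BcBKO and 1.80% lower. The median of all these genes was 0.058. The Iapp value depended on the scale: it was 0.015 relative to UMIs outside Ins1 and Ins2, 0.041 with TMM scaling and 0.032 as the ratio of medians over cells.

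Relative to each other, the members kept nearly the same proportions when summed over beta cells. Ins2 had 2.27 UMIs for each Ins1 UMI in beta cells labelled BcBKO and 2.24 in flox/flox beta cells, a log2 ratio of −0.016 for Ins1 over Ins2. Iapp had 9.68 UMIs per 100 insulin UMIs (Ins1 and Ins2 together) in the library labelled BcBKO and 8.71 in the flox/flox library, a log2 ratio of 0.15 that was 0.079 as the ratio of medians over cells.

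The spread from cell to cell differed more between the libraries than the sums did. The Ins1 share of a cell's insulin UMIs had a median of 29.8% in beta cells labelled BcBKO, with a 10th percentile of 23.2% and a 90th of 36.1%. In flox/flox beta cells the median was 30.6% and these percentiles were 25.8% and 34.3%. The SD over cells was 6.61 percentage points in the library labelled BcBKO and 4.38 in the flox/flox library. These spreads exceeded what sampling of UMIs gives in both libraries: the variance was 366 times the binomial variance in the library labelled BcBKO and 170 times in the flox/flox library.

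A shoulder of cells rich in Ins1 accounted for part of the wider spread. At an Ins1 share of 38% or more, a limit set after the distribution had been seen, stood 235 of 3058 beta cells labelled BcBKO (7.68%, exact binomial interval 6.77 to 8.69) and 19 of 2750 flox/flox beta cells (0.691%, 0.416 to 1.08). In the library labelled BcBKO each 1-point bin from 38 to 49% held between 0.491% and 0.785% of cells. The bins then fell to 0.360% at 49 to 50% and 0.0654% at 51 to 52%. Beyond 52% stood 3 cells, all labelled BcBKO, at 69.2, 76.6 and 82.1%, with 53.4, 19.01 and 45.2 Iapp UMIs per 100 insulin UMIs and distal chromosome 7 shares, described below, of 2.14, 3.43 and 3.33%. At a limit of 36% the shares were 10.1% and 3.02%, and at 40% they were 6.41% and 0.436%. Thinning every cell to 10000 UMIs gave 7.62% of cells labelled BcBKO and 0.8% of flox/flox cells.

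**Figure D2:**
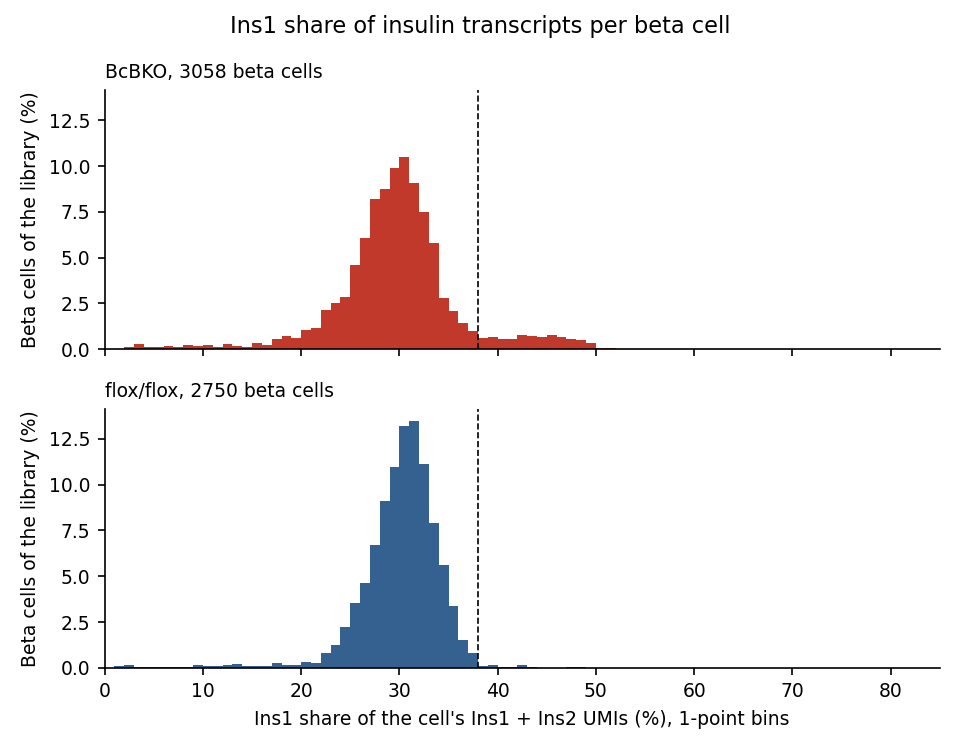
Share of each library's beta cells (%) in 1-point bins of the Ins1 share of insulin UMIs (%), for 3058 BcBKO cells (top) and 2750 flox/flox cells (bottom); the dashed line marks 38%. Both libraries peak near 30%, and a low shoulder from 38% to about 50% holds most of the 7.68% of BcBKO cells and 0.691% of flox/flox cells beyond the line, and 3 BcBKO cells past 65% have bars too low to see.

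The cells rich in Ins1 were low in transcripts of chromosome 7, the chromosome of Ins2. For this comparison the 235 cells labelled BcBKO at 38% or more were set against 2236 cells of the same library with an Ins1 share of 25 to 35%, over 3868 genes at 50 CPM or more outside the members, the other hormones, hemoglobin, mitochondrial genes, Malat1 and Gm42418. A log2 ratio of −0.25 or less was reached by 14.3% of these genes, and one of 0.25 or more by 6.26%. On chromosome 7, 209 of 282 genes (74.1%) were lower by that much, with a median log2 ratio of −0.53. The 3586 genes of the other chromosomes had a median of −0.015, and 9.56% of them were lower by that much. The medians of the single other chromosomes lay between −0.043 and 0.0044, including −0.033 for chromosome 19, which holds Ins1, and −0.023 for chromosome 6, which holds Iapp.

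The reduction was deeper in the distal part of chromosome 7. Beyond 75 Mb, a split placed after seeing the data, all 145 genes had ratios below 0, 142 of them (97.9%) by at least 0.25, with a median of −0.72. Of the 137 genes before 75 Mb, 67 (48.9%) were lower by at least 0.25, with a median of −0.24. Genes of unrelated roles took part, the examples being chosen after their values were seen. Rps3, a protein of the small ribosomal subunit, stood at 971 CPM in cells rich in Ins1 and 1500 CPM in the other cells, a log2 ratio of −0.63. Rpl27a of the large subunit was at 1529 against 2363 CPM (−0.63). Kcnq1ot1, an imprinted noncoding RNA that lies close to Ins2, was at 147 against 244 CPM (−0.73). Trpm5, which encodes a cation channel of taste cells and beta cells, was at 106 against 288 CPM (−1.43), and Ucp2, a mitochondrial carrier, at 150 against 309 CPM (−1.04). The split could be moved to 60 or 90 Mb with medians of −0.69 and −0.72.

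**Figure D3:**
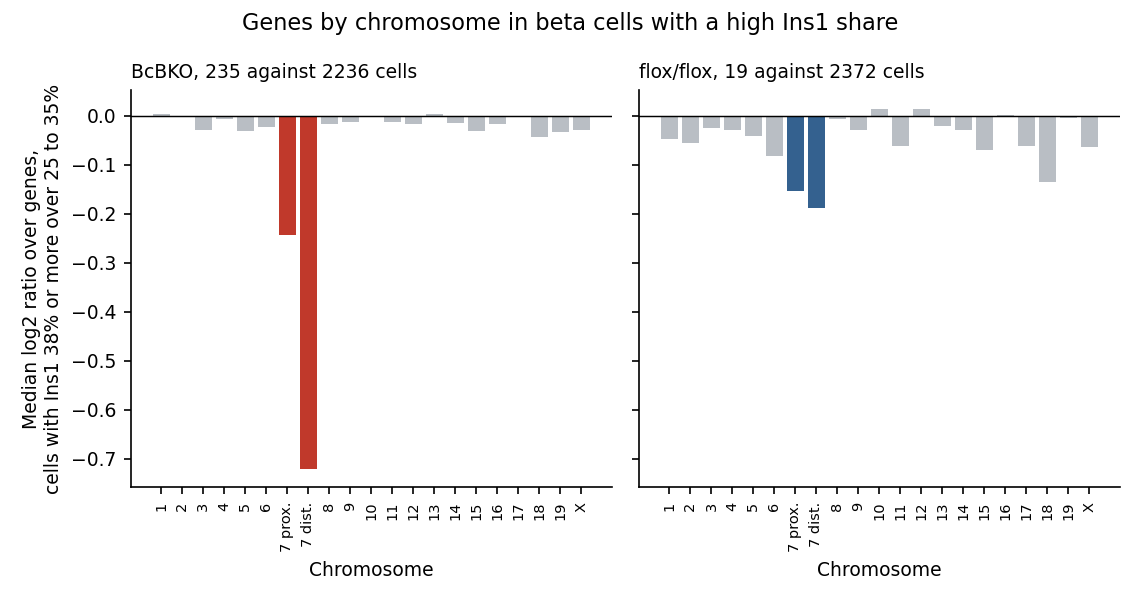
Median log2 ratio over genes, by chromosome, of beta cells with an Ins1 share of 38% or more over beta cells at 25 to 35%, within BcBKO (left, 235 against 2236 cells) and within flox/flox (right, 19 against 2372 cells); chromosome 7 is split at 75 Mb into a proximal (prox.) and a distal (dist.) part and coloured. In BcBKO the distal part stands at −0.72 and the proximal part at −0.24, while the other chromosomes lie near 0.

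In the flox/flox library the same comparison rested on 19 cells against 2372. There the median was −0.19 for distal and −0.15 for proximal genes of chromosome 7, and 40.1% of 147 distal genes were lower by at least 0.25, beside 27.8% of all 3916 genes tested. The medians of the single other chromosomes lay between −0.14 and 0.015. Chromosome 18 was the lowest of them and close to chromosome 7, with 37.8% of its 90 genes lower by that much. Endothelial and mural transcripts were among the highest in these 19 cells, with Rgs5, a marker of mural cells, at 616 against 51.2 CPM. Their part in that result was not tested. In the library labelled BcBKO, C1qa of macrophages was at 441 against 147 CPM in the cells rich in Ins1, and the antibody gene Igkc at 50.2 against 438 CPM.

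The relation also held when cells were sorted by chromosome 7 instead of by insulin. The share of a cell's counted UMIs from distal chromosome 7, with Ins2 left out, had a median of 3.51% in beta cells labelled BcBKO and 3.47% in flox/flox beta cells. It was under 2.5% in 259 cells labelled BcBKO (8.47%, interval 7.51 to 9.51) and in 10 flox/flox cells (0.364%, 0.175 to 0.668). It was 4.8% or more in 130 cells labelled BcBKO (4.25%, 3.56 to 5.03) and in 3 flox/flox cells (0.109%, 0.0225 to 0.318). These limits were chosen after seeing the distribution. Of the 235 cells labelled BcBKO that were rich in Ins1, 199 (84.7%) lay under 2.5% and none at 4.8% or more, while of the 19 such flox/flox cells 5 lay under 2.5%.

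**Figure D4:**
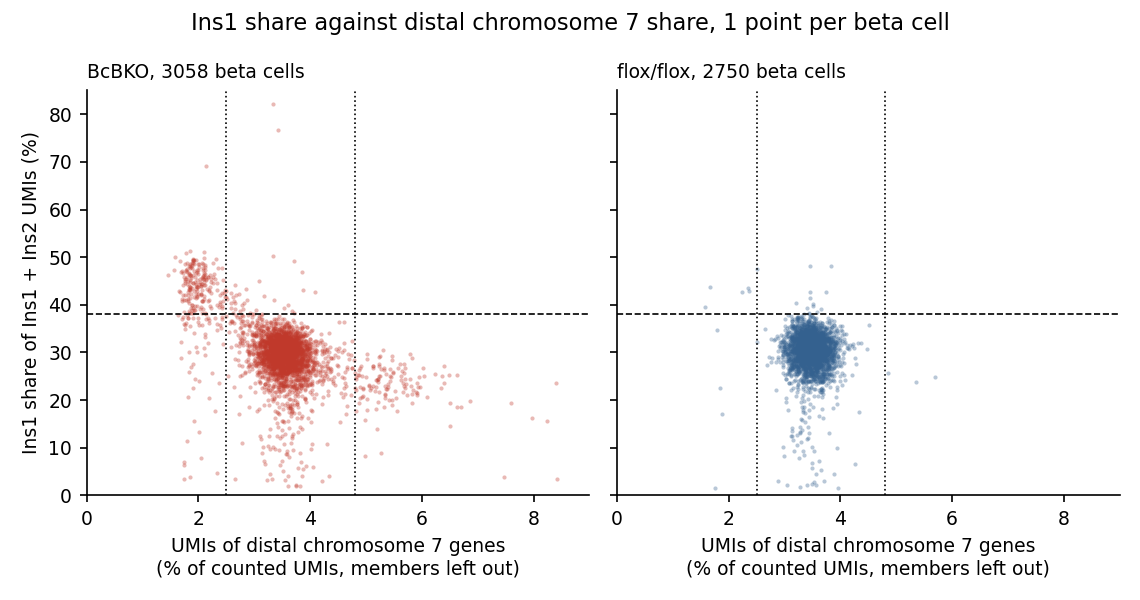
Ins1 share of insulin UMIs (%) against the share of counted UMIs from distal chromosome 7 genes other than the members (%), 1 point per beta cell, for BcBKO (left) and flox/flox (right); the dashed line marks 38% and the dotted lines mark 2.5% and 4.8%. BcBKO cells form a group at the upper left, where 259 cells lie under 2.5%, and a smaller one at the lower right, where 130 lie at 4.8% or more, and flox/flox has 10 and 3 cells there.

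Both insulin genes took different levels in these classes of the library labelled BcBKO. In the 259 cells low in distal chromosome 7 the median Ins1 share was 43.0% (10th to 90th percentile 31.7 to 48.4), against 29.6% (24.0 to 33.5) in the 2453 cells with a distal share of 3 to 4.2%. Per 10000 UMIs outside the members and the other genes left out, the median of Ins2 was 11099 UMIs in the low class against 15989 in the middle cells, that of Ins1 8516 against 6640 and that of Iapp 2181 against 1950. From summed UMIs the log2 ratios were −0.51 for Ins2, 0.26 for Ins1 and 0.13 for Iapp. In the 130 cells high in distal chromosome 7 the median Ins1 share was 23.2%, and the summed log2 ratios over the same 2453 cells were −0.60 for Ins1, −0.13 for Ins2 and −0.28 for Iapp. The insulin share of all UMIs had medians of 59.5% in the low class, 59.0% in the high class and 63.2% in the middle. In the library labelled BcBKO a high Ins1 share in the low class thus came with less Ins2 and more Ins1 per other UMI, and a low Ins1 share in the high class with less of both. In the 10 flox/flox cells of the low class the median Ins1 share was 37.2%. Against the 2674 middle cells of that library the summed log2 ratios were −0.57 for Ins2, −0.36 for Ins1 and 0.016 for Iapp. Per 10000 other UMIs, the median of Ins2 in these cells was 10639 against 16543. That of Ins1 was 7304 against 7250 and that of Iapp 1782 against 2006. The direction for Ins1 and Iapp in these 10 cells thus depended on the summary used.

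The proximal part of the chromosome divided the low class. Its UMI share was under 2.8% in 144 of the 259 cells, with a median of 2.21%, and at least 2.8% in 115 cells, with a median of 3.92% that was close to the 3.99% of the 2453 middle cells. The median Ins1 shares of the subsets were 43.2% and 42.7%. Against the middle cells their summed log2 ratios were 0.18 and 0.34 for Ins1 and −0.59 and −0.44 for Ins2, and the difference between the subsets was not tested. In the high class the proximal share had a median of 2.57%, lower than in the middle cells, although the distal share of the same cells was 5.39% against 3.53%.

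To keep the selection apart from the measure, alternate distal genes were put into 2 sets, and cells classed by one set were read in the other. In the library labelled BcBKO, all 71 genes read from each set were lower in the low class, with medians of −0.81 and −0.86, and all 71 were higher in the high class, with medians of 0.55 and 0.53. Medians over the other chromosomes stayed between −0.016 and 0.0036 there, and the Ins1 share was 42.8% in both low classes, against 29.6% in the middle cells. In the flox/flox library 13 cells were low by each set, with medians of −0.73 (65 of 73 genes below 0) and −0.63 (61 of 73). Their Ins1 shares were 32.6 and 32.2%, against 30.6% in the middle cells. The high classes there had medians of 0.14 (44 of 73 genes above 0) and 0.21 (51 of 73). DNA was not measured in these libraries, so whether the cells differ in copies of the chromosome was not tested, and whether they came from 1 mouse of the pool cannot be told.

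Other populations of the library labelled BcBKO had fewer such cells among those with at least 4000 UMIs. A distal share under 2.5% was seen in 9 of 674 alpha cells (1.34%, interval 0.612 to 2.52), 2 of 362 delta cells (0.552%), 0 of 980 endothelial cells, which allows up to 0.376%, and 1 of 302 macrophages (0.331%). The interval of beta cells was 7.51 to 9.51%. All these intervals cover counting error alone, the cells of 1 pooled library are not replicates, and the difference between populations was not tested. The populations also differed in depth, with medians of 9404 counted UMIs in beta cells and 4968 in macrophages. In the flox/flox library the shares of alpha, delta, endothelial and macrophage cells ran from 0% to 1.31%.

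Restricting the comparison of libraries to beta cells with a distal share of 3 to 4.2%, an alternative added after seeing the data, left 2453 cells labelled BcBKO and 2674 flox/flox cells. Only 15 (0.611%) and 13 (0.486%) of them reached an Ins1 share of 38%, and the SD over cells became 5.01 percentage points in the library labelled BcBKO and 4.23 in the flox/flox library. The log2 ratio of Ins1 over Ins2 was −0.073 there and −0.016 over all beta cells, with Ins1 at −0.087 and Ins2 at −0.014.

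Cells poor in Ins1 were found in both libraries. Under 20% stood 149 cells labelled BcBKO (4.87%) and 66 flox/flox cells (2.40%). Of those labelled BcBKO, 70.5% had a distal chromosome 7 share of 3 to 4.2%, against 80.2% of all beta cells of that library, and 15.4% had one of 4.8% or more, against 4.25%. Of the flox/flox cells, 89.4% had a share of 3 to 4.2%, against 97.2% of all, and none had 4.8% or more. These cells had a smaller insulin share of all UMIs, with medians of 51.1% in the library labelled BcBKO and 46.8% in the flox/flox library, against 63.4% and 64.5% in cells with an Ins1 share of 25 to 35%. Their median Ins1 level was 1992 and 1293 UMIs per 10000 other UMIs, against 6802 and 7301 in cells at 25 to 35%, and that of Ins2 11970 and 10359, against 16094 and 16607. Their medians for Iapp per 100 insulin UMIs were 12.8 and 14.9, higher than the 8.62 and 8.44 of cells at 25 to 35%, though Iapp per 10000 other UMIs was lower, at 1733 and 1515 against 1973 and 2010.

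Deeper cells had higher Ins1 shares in both libraries. In 5 equal classes of beta cells from the shallowest to the deepest, the medians were 27.1, 28.6, 30.1, 30.9 and 31.1% in the library labelled BcBKO and 28.1, 29.7, 30.6, 32.1 and 31.7% in the flox/flox library, where the deepest class was below the one before it. The rank correlation of the Ins1 share with UMIs per cell was 0.33 over 3058 cells labelled BcBKO and 0.44 over 2750 flox/flox cells, given as a description because the cells of a library share their preparation. The Iapp ratio had medians between 8.53 and 10.0 in the library labelled BcBKO and between 8.07 and 9.001 in the flox/flox library, and was highest in the deepest class of each library.

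Iapp also varied from cell to cell beyond the sampling of UMIs, read as its share of Iapp and insulin UMIs together. The squared deviation from the summed share averaged 312 times the binomial variance in the library labelled BcBKO and 187 times in the flox/flox library. As for Ins1, such a multiple also rises with UMIs per cell. Per 100 insulin UMIs the median of Iapp was 8.97 in beta cells labelled BcBKO (10th to 90th percentile 6.05 to 13.9) and 8.49 in flox/flox beta cells (5.89 to 11.7). The rank correlation of the Ins1 share with the Iapp ratio across cells was −0.069 in the library labelled BcBKO and −0.20 in the flox/flox library, as a description.

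Genes that varied with the members across beta cells thinned to 10000 UMIs were weakly correlated, and cells of a library share depth and free RNA. Among 453 genes with at least 1 UMI per thinned cell, the 5 with the highest mean rank correlation with Iapp per UMI outside insulin were Ssr4 and Sec61b, parts of the machinery by which proteins enter the endoplasmic reticulum, Scg2 and Scg5 of secretory granules, and Bex2, at 0.16 to 0.23. The 5 lowest were the nuclear noncoding RNA Malat1 (−0.35), the mitochondrial genes mt-Co3 and mt-Nd2, the immediate-early gene Egr1 and the chaperone Hsp90aa1, at −0.24 to −0.28. With the Ins1 share of insulin, the highest were Dapl1 (0.28), the prohormone convertase gene Pcsk2 (0.25), the chaperone cofactor Sdf2l1, Scg2 and the thyroid hormone carrier Ttr. The lowest were the ferritin genes Ftl1 (−0.24) and Fth1, mt-Co3, mt-Co2 and the metallothionein Mt1. Ftl1 itself lies on proximal chromosome 7, and its correlation was −0.22 in the library labelled BcBKO and −0.26 in the flox/flox library. In cells labelled BcBKO with an Ins1 share of 38% or more, Dapl1 stood at 2097 CPM against 526 CPM at 25 to 35%. Pdyn, which encodes an opioid peptide precursor, was at 771 against 264 CPM, and the cell-cycle inhibitor gene Cdkn1a at 340 against 117 CPM. The direction was the same in the 19 flox/flox cells at 38% or more. There Dapl1 was at 651 against 408 CPM, Pdyn at 436 against 123 CPM and Cdkn1a at 242 against 125 CPM.

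By level over the 5 populations of both libraries (10 points, which share libraries and free RNA, and whose gates used the insulin share itself, so that the likeness of Ins1 and Ins2 is fixed by the gates), Ins1 and Ins2 were each the gene most like the other among 989 genes, with a Pearson correlation of 1.00 on log2(CPM + 1). Ucn3, which encodes the beta-cell peptide urocortin 3, came next for both (1.00), followed by Tmem215 (0.99 or above), Prss53 and, for Ins1, the glucose transporter gene Slc2a2 or, for Ins2, Ero1lb, an oxidase that forms disulfide bonds in insulin. For Iapp the order was different, with the disulfide isomerase gene Pdia6 (0.98), Spock2 (0.98), Ppp1r1a (0.97), Zdhhc2 (0.96) and the convertase gene Pcsk1 (0.95).

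Cells of other types each carried a similar number of insulin UMIs. They were kept barcodes with under 15% insulin UMIs: alpha cells had at least 10% of UMIs from Gcg, delta cells at least 5% from Sst, endothelial cells at least 3 UMIs of Plvap and Cdh5, and macrophages at least 5 of C1qa and C1qb. In the library labelled BcBKO, 714 alpha cells had a median of 276 insulin UMIs (10th to 90th percentile 221 to 404), 371 delta cells 272 (217 to 384), 1516 endothelial cells 219 (160 to 289) and 367 macrophages 244 (203 to 318). In the flox/flox library, 415 alpha cells had 261 (209 to 364), 281 delta cells 266 (205 to 378), 1763 endothelial cells 221 (175 to 290) and 463 macrophages 240 (194 to 312). No cell of these populations in either library lacked insulin UMIs. The median Ins1 share of them lay between 28.8 and 29.0% in the library labelled BcBKO for alpha, endothelial and macrophage cells and was 29.2% in delta cells, and lay between 29.4 and 29.6% in the flox/flox library.

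The counts were alike although the cells were not equally deep. Median UMIs per cell were 11894 in alpha and 5123 in macrophage cells labelled BcBKO, and 14582 in alpha and 5625 in macrophage cells of the flox/flox library. Barcodes removed for few genes or UMIs, with medians of 812 UMIs in the library labelled BcBKO and 822 in the flox/flox library, still held medians of 256 and 247 insulin UMIs. As a share of all UMIs, insulin was therefore lowest in the deepest cells, at 2.58% of the summed UMIs of alpha cells labelled BcBKO and 1.98% in flox/flox, and highest in macrophages, at 4.45% and 3.81%. Insulin UMIs in these populations stood at or near this common level, and no expression by the cells themselves was read from them.

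The insulin share of all UMIs was higher in the library labelled BcBKO in each of these populations. The log2 ratio was 0.38 in alpha cells, 0.14 in delta cells, 0.19 in endothelial cells and 0.22 in macrophages. The alpha value alone passed 0.25. Among genes at 100 CPM or more, 6.82% of 851 were higher by at least 0.25 in alpha cells, 4% of 1125 in delta cells, 3.04% of 1777 in endothelial cells and 6.94% of 1124 in macrophages. The cells of the library labelled BcBKO were shallower in each population, and their insulin UMIs per cell, given above, differed by at most 15 in the median. Barcodes that passed more than 1 of the 4 gates, 102 in the library labelled BcBKO and 72 in the flox/flox library, weighed on the smaller populations: without them the ratio was 0.12 in macrophages and 0.26 in delta cells. With the insulin limit at 25% the macrophage value was 0.54, and as a ratio of medians over cells the endothelial value was 0.074.

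Iapp did not share the common level. In endothelial cells it had a median of 20 UMIs in the library labelled BcBKO (10th to 90th percentile 12 to 30) and 19 in the flox/flox library (12 to 28), and in macrophages 21 and 19. Alpha cells had medians of 28 and 27. Delta cells had a median of 213 (89 to 443) in the library labelled BcBKO and 231 (96 to 499) in the flox/flox library, about as many UMIs as they had of insulin.

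As a share of all UMIs, summed Iapp was higher by more than 0.25 in the library labelled BcBKO in alpha, endothelial and macrophage cells. In delta cells the log2 ratio was 0.050. The log2 ratio was 0.44 in alpha cells (5779 against 4271 CPM), 0.61 in endothelial cells (4004 against 2619 CPM) and 0.75 in macrophages (7411 against 4417 CPM), where the shares of genes that much higher were the 6.82%, 3.04% and 6.94% given above. As ratios of medians over cells these values were 0.37, 0.22 and 0.28. Without called doublets the endothelial value was 0.28, and without barcodes of another gate the macrophage value was 0.47.

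**Figure D5:**
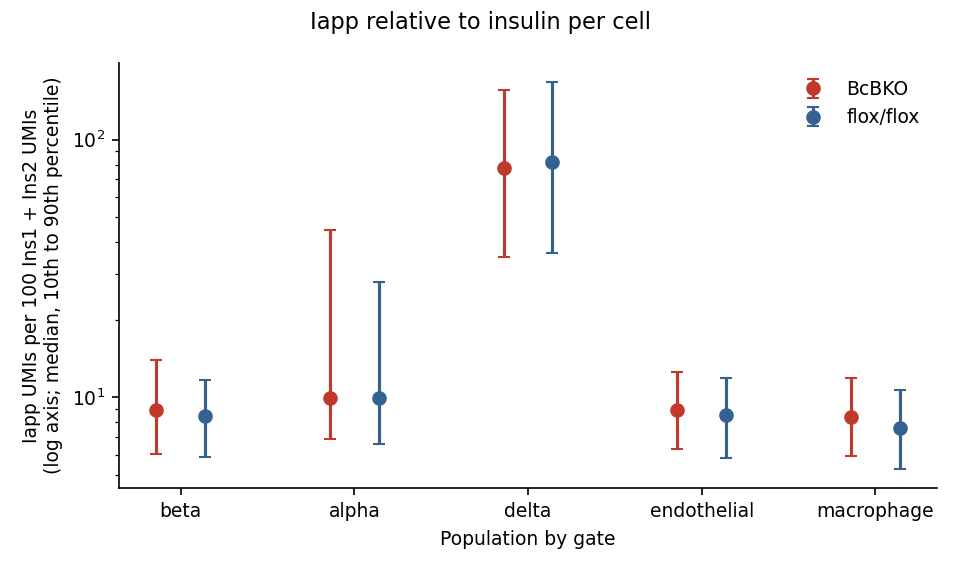
Iapp UMIs per 100 insulin UMIs per cell (log axis) in the 5 gated populations, BcBKO left and flox/flox right of each pair; points are medians and bars run from the 10th to the 90th percentile. Delta cells stand apart, with medians of 77.3 and 82.2, and endothelial and macrophage cells lie at the level of beta cells.

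The Iapp to insulin ratio set delta cells apart in both libraries. Its median was 77.3 per 100 insulin UMIs in delta cells labelled BcBKO (10th to 90th percentile 34.95 to 155) and 82.2 in flox/flox delta cells (36.2 to 167). In endothelial cells it was 8.95 (6.33 to 12.5) and 8.52 (5.84 to 11.9), close to the 8.97 and 8.49 of beta cells, and in macrophages 8.37 and 7.64. Alpha cells had 9.95 and 9.91, with 90th percentiles of 44.4 and 28.0 that were 16.92 and 17.002 without barcodes that passed another gate. Summed over all gated cells the ratios were above these medians, at 22.4 and 21.6 in alpha and 16.6 and 11.6 in macrophage cells.

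Within delta cells that passed no other gate, the Iapp count was higher where the somatostatin share was higher. Split into 3 equal classes by the Sst share, which had medians of 12.8, 17.7 and 21.9% in 308 cells labelled BcBKO and 12.6, 17.3 and 22.6% in 243 flox/flox cells, the median Iapp count was 163, 196 and 254 UMIs in the library labelled BcBKO and 194, 231 and 260 in the flox/flox library. The median insulin count was 265, 263 and 267 in the library labelled BcBKO and 253, 266 and 267 in the flox/flox library. Depth rose over the same classes, with median UMIs per cell of 8247, 8300.5 and 8757 in the library labelled BcBKO and 9145, 9562 and 10305 in the flox/flox library. The part of depth in the Iapp counts was not tested. Taking the endothelial ratio as that of free RNA, 182 of the median 207 Iapp UMIs in delta cells labelled BcBKO lay beyond it, and 198 of 219 in flox/flox delta cells. In alpha cells that passed no other gate the same excess was 1.85 UMIs and 3.04 UMIs, and it had no order over 3 classes of Gcg. A ratio of 30 or more was reached by 92.5% of these delta cells labelled BcBKO and 93.4% of those of flox/flox, against 0.539% and 0.0577% of endothelial cells. Over the Sst classes this share was 88.3, 92.2 and 97.1% in the library labelled BcBKO, and 91.4, 96.3 and 92.6%, without order, in the flox/flox library. Between the libraries the log2 ratio of Iapp as a share of all UMIs was 0.050 in delta cells (23041 against 22262 CPM). The delta gate also held transcripts of pancreatic polypeptide cells (Ppy, Pyy and Tspan8), at 97028 and 95316 CPM in sum. They were not particular to it, at 70715 and 80597 CPM in alpha cells and 24697 and 9276 CPM in macrophages. Their part in the Iapp level was not tested.

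Barcodes with at least 25% insulin UMIs but under 10000 UMIs, 590 in the library labelled BcBKO and 480 in the flox/flox library, kept a different balance from beta cells. Their median Ins1 share was 26.2% in the library labelled BcBKO and 26.8% in the flox/flox library, and their median Iapp ratio was 4.26 and 3.95, less than 5 per 100 insulin UMIs in each.

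Genes that make, fold or control the members were compared between the libraries in beta cells from lists of fixed content. All 6 prohormone processing genes passed 20 CPM, and 2 were higher by at least 0.25 in the library labelled BcBKO, where 5.82% of all genes were: Pam, which encodes the amidating enzyme that amylin needs, at 211 against 158 CPM (log2 ratio 0.42), and Pcsk1, at 109 against 87.5 CPM (0.31). Pcsk1n, an inhibitor of that convertase, was at −0.016 and Scg5, a helper of the convertase encoded by Pcsk2, at 0.098. The list's median was 0.20, beside 0.058 for all genes. Of 8 granule genes 7 passed, and 2 were higher, Ptprn at 0.46 and the granin gene Chgb at 0.33, with a median of 0.11; the lowest were the zinc transporter gene Slc30a8 at −0.21 and the granin gene Chga at −0.069.

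Of 13 folding and secretory entry genes found in the files, 13 passed and 1 was higher, Ssr4, a subunit of the translocon-associated complex, at 654 against 516 CPM (0.34), with a median of 0.093. Next was the signal peptidase gene Spcs1 at 0.16, and the lowest were Spcs2 at −0.0074 and Pdia4 at 0.014. Of 10 regulators of the insulin and amylin genes 8 passed and 2 were higher: Nkx2-2, at 59.6 against 42.8 CPM (0.47), and Pdx1, at 63.3 against 47.1 CPM (0.42). Isl1 was at −0.11 and Nkx6-1 at −0.0019, and the median was 0.21. Mafa did not pass, at 1.25 and 0.782 CPM. Of 7 receptor and breakdown genes only Igf1r passed (−0.095), and Calcr, the core of the amylin receptor, had 0 UMIs in beta cells of both libraries. No listed gene that passed was lower by 0.25 or more, where 1.80% of all genes were.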

How the data were processed

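The counts used here are the UMI counts per gene and cell barcode that the authors deposited for both libraries, not normalised. Per the submitters' processing notes, Cell Ranger 3.1.0 and Seurat 4.0.0 were applied with mm10, but the matrix header gives cellranger 6.1.2, so the version behind the counts stays unsettled. Filters and gates are stated with the results. UMIs were summed over the cells of a population and scaled to CPM. Shares have Clopper-Pearson intervals. Log2 ratios of members have exact conditional intervals, and ratios of 2 ratios a Wald interval on the log odds, since their counts are very large.

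Scrublet (scanpy 1.11.5, expected rate 8%, seed 1) called 177 barcodes labelled BcBKO (2.08%) and 170 of flox/flox (2.25%) as doublets; they were kept, and left out in an alternative. Cells were thinned to 10000 UMIs without replacement. edgeR 4.0.16 gave the TMM factors. Other versions were matplotlib 3.10.9, pandas 2.3.3, scipy 1.17.1, numpy 2.4.6 and Python 3.11.15. The ratio procedure was run on Poisson counts drawn from summed flox/flox beta-cell levels, with known changes put into genes other than the members. Those counts held no variation between cells or mice, so the run checks the calculation alone and says nothing of the member ratios. Members, gates, gene lists and alternatives were chosen with earlier results of these data known, and the chromosome 7 classes after seeing the data. Most alike genes were the 5 highest (across cells also the 5 lowest) by the correlations given, and in each pathway list the 2 highest and the 2 lowest were to be named. The chromosome share counts UMIs of genes with a GENCODE M21 position outside the members, Gcg, Sst, Ppy, Pyy, Malat1, Gm42418, mitochondrial and hemoglobin genes. The endothelial gate included mural transcripts. Acinar markers, at 10.9 CPM in beta cells labelled BcBKO and 72.6 CPM in flox/flox beta cells, were lower in the library labelled BcBKO in every population.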

Additional observations from a re-analysis of the deposited data

Results flagged for a closer look

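The insulin share of all UMIs moved in opposite directions in beta cells and in the other populations, a difference that was not tested, with 1 library per group. In beta cells the log2 ratio of BcBKO over flox/flox was −0.051, whereas it was 0.38 in alpha cells, 0.14 in delta cells, 0.19 in endothelial cells and 0.22 in macrophages. Median UMIs per cell were lower in the library labelled BcBKO in all 5 populations, and the part of depth in these values was not tested.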

How the results depend on the processing

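No value that passed 0.25 reversed its direction under any alternative run. The counting intervals are narrow, so values moved past them easily; log2 ratios are of BcBKO over flox/flox, and where a value moved the cause was not tested. In beta cells, Ins1 and Ins2 were −0.063 and −0.047 with an insulin limit of 15%, −0.054 and −0.044 from 20000 UMIs, −0.060 and −0.044 with other hormones under 0.5%, −0.085 and −0.070 with no such limit, −0.064 and −0.048 without called doublets, −0.080 and −0.023 as medians over cells, −0.12 and −0.11 with TMM, −0.057 and −0.040 without mitochondrial UMIs, and −0.087 and −0.014 with a distal chromosome 7 share of 3 to 4.2%. Ins1 was −0.067 in thinned cells and Ins2 −0.045 with a limit of 35%. Iapp and its ratio to insulin were 0.095 and 0.15 at 35%, 0.090 and 0.14 with other hormones under 0.5%, 0.094 and 0.17 with no such limit, 0.032 and 0.079 as medians, 0.086 and 0.14 in thinned cells, and 0.067 and 0.10 with a distal share of 3 to 4.2%. Iapp alone was 0.10 without doublets, 0.041 with TMM, 0.11 without mitochondrial UMIs and 0.015 relative to UMIs outside insulin, and its ratio was 0.15 from 20000 UMIs. The Ins1 to Ins2 ratio was −0.010 from 20000 UMIs, −0.015 with no limit on other hormones, −0.054 as medians, −0.021 in thinned cells and −0.073 with a distal share of 3 to 4.2%.

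Insulin in alpha cells was 0.42 with the stricter filter, 0.32 and 0.25 with insulin limits of 5 and 25%, 0.34 with the marker minimum doubled, 0.41 without barcodes of 2 gates and 0.37 as medians. In delta cells it was 0.16 with the stricter filter, 0.11 at 25%, 0.17 with the minimum doubled, 0.26 without barcodes of 2 gates and 0.19 as medians. In endothelial cells it was 0.18 with the stricter filter, 0.11 and 0.22 at 5 and 25%, 0.18 without doublets and 0.074 as medians. In macrophages it was 0.12 and 0.54 at 5 and 25%, 0.16 with the minimum doubled, 0.12 without barcodes of 2 gates and 0.12 as medians. Iapp outside beta cells, with settings added after seeing the data, was 0.33 in alpha, 0.00052 in delta, 0.40 in endothelial and 0.57 in macrophage cells with an insulin limit of 5%, and 0.37, 0.015, 0.22 and 0.28 in the same order as medians. Without barcodes of 2 gates it was 0.11 in delta, 0.54 in endothelial and 0.47 in macrophage cells, and without called doublets 0.41 in alpha and 0.28 in endothelial cells. Also added then, an Ins1 limit of 36% gave 10.1% of beta cells labelled BcBKO, 3.02% of flox/flox beta cells and a distal chromosome 7 median of −0.57, and a limit of 40% gave 6.41% of beta cells labelled BcBKO.

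No paired analysis was possible because each group is 1 library. One library per group also means that no difference has a replicate check, leaving out a replicate could not be tried, and counts of 1 library do not show how mice vary.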
